A study of Solanum commersonii and Solanum tuberosum with 8 samples.

Results

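On a microarray of 11366 clones, 36 clones gave opposite ratios in the 2 potato species when the Arabidopsis transcription factor CBF3 was expressed from the constitutive 35S promoter (35S::AtCBF3). A clone was included when it was at least 2-fold higher than in wild type (log2 ratio of 1 or more) in the transgenic plants of one species and at least 2-fold lower (log2 ratio of -1 or less) in those of the other. The first direction, higher in Solanum commersonii (Sc) and lower in Solanum tuberosum (St), held 21 clones, or 0.185% of the array. The reverse direction, lower in Sc and higher in St, held 15 clones, or 0.132%. The clones were selected on the log2 ratios of these 2 transgenic columns, so their values there are a description and carry no test.

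The study set leaf RNA of Sc, a wild potato, and of St, the cultivated potato, against warm wild-type leaf RNA of the same species. The 35S::AtCBF3 material came from 3 independent transgenic lines of Sc and 2 of St, kept warm at 25°C and harvested 8 h after dawn, with wild-type plants of the species as controls. Wild-type plants of either species were also moved to 2°C at 8 h after dawn and harvested after 2 h, 24 h or 7 d, in 3 independent experiments. Controls for 2 h of cold were wild-type plants held warm for 2 h. Those for 24 h and 7 d of cold were wild-type plants held warm for 24 h, so the last 2 columns share a control within each species and the 7 d plants were older than theirs. All plants were 3 weeks old at the start and had a day of 16 h of light and 8 h of darkness. Light intensity was 350 in the warm and 50 in the cold, in the unit of the labels, so that light fell together with temperature.

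CBF proteins (also called DREB1) are AP2-domain transcription factors that bind a short element in the promoters of cold-responsive genes and activate them. In Arabidopsis the CBF genes are themselves induced within hours of cold, and constitutive CBF3 turns on many of their targets in the warm and raises freezing tolerance. Sc becomes hardier when it is kept in the cold, whereas St is damaged by frost and does not acclimate. How far the CBF3 response is shared between such species is the question that clones with opposite ratios bear on.

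Each clone had 1 deposited value per column, a log2 ratio into which the authors had combined 3 slides, or 2 in the case of St 35S::AtCBF3. No spread between slides or lines was at hand, and no difference could be tested. Whether 1 transgenic line carried a ratio was not tested. A positive ratio was read as higher in the transgenic or cold plants, the likely direction from the channel labels. If all columns ran the other way, the 2 directions would change places and higher would read lower throughout. The genotype label of the St transgenic sample names Sc, while its title, source and organism name St. It was used as St, and a wrong label would change what an opposite ratio means. Across all clones the 35S::AtCBF3 columns correlated positively (r = 0.48), so the opposite clones ran against the general relation of the columns. The files do not pair the clones with genes, so clones are given by identifier and no gene function can be attached to them. For the same reason the level of the transgene itself and leaf markers were not checked here.

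**Figure D1:**
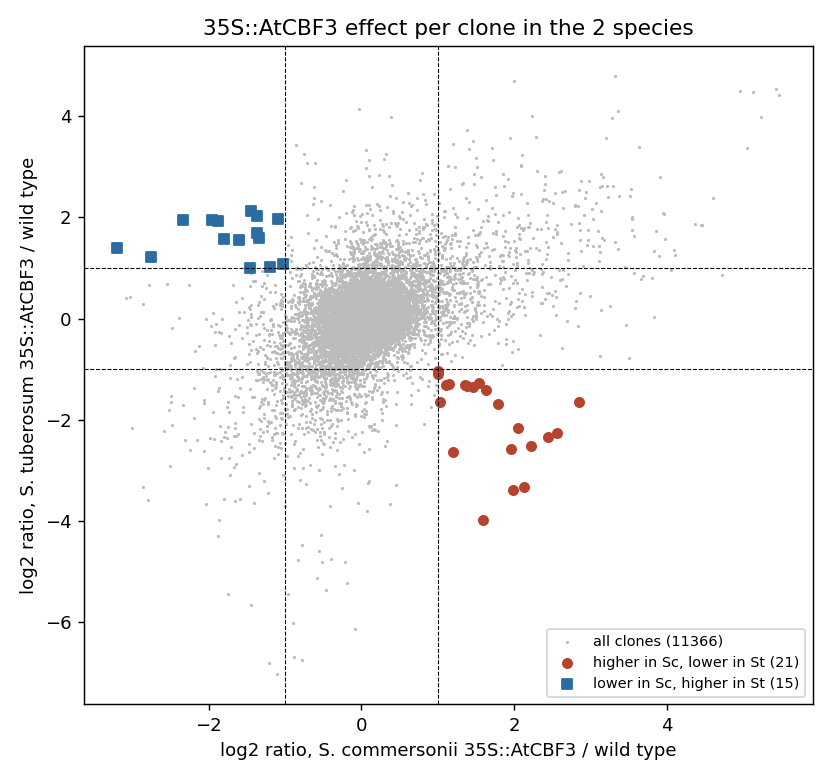
Each point is 1 clone, with its log2 ratio to wild type in Sc 35S::AtCBF3 plants on the x axis and in St 35S::AtCBF3 plants on the y axis, and dashed lines at 2-fold. The 21 clones higher in Sc and lower in St lie at the lower right, and the 15 clones lower in Sc and higher in St at the upper left, on either side of a cloud that runs from lower left to upper right.

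Opposite clones were a small part of each list they came from. Of the 660 clones at least 2-fold higher in Sc 35S::AtCBF3 plants (5.81% of all clones), 296 were also 2-fold higher in St, 343 lay between the thresholds and 21 (3.18%) were 2-fold lower. Of the 827 clones 2-fold lower in St (7.28%), these 21 made up 2.54%, and 182 were 2-fold lower in Sc too. In the other direction, the 15 clones were 4.25% of the 353 clones lower in Sc (3.11%) and 1.89% of the 794 clones higher in St (6.99%). The median St log2 ratio was 0.90 over the 660 clones higher in Sc and -1.06 over the 353 lower ones.

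The gap between the species was wide for many of the 36 clones. By construction each differed by at least 4-fold between the species. Over the array, 154 clones were at least 4-fold higher in Sc than in St 35S::AtCBF3 plants, relative to their own wild types, and 91 the reverse. Among the 20 clones with the widest gap in either direction, 9 were opposite clones, 8 of them higher in Sc and 1 higher in St. The gap comes from the columns that chose the clones, so their place among the widest gaps follows in part from the selection. The 21 clones of the first direction had a median log2 ratio of 1.58 in Sc (3.00-fold higher, range 1.01 to 2.85) and of -1.66 in St (3.15-fold lower, range -3.98 to -1.04). The 15 clones of the second direction had medians of -1.46 in Sc (2.75-fold lower, range -3.19 to -1.03) and of 1.60 in St (3.03-fold higher, range 1.001 to 2.13). Single clones could be far less even than these medians, as STMGD72 and STMIY25 were.

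The threshold cut through a continuum. The clones of the first direction nearest to it had log2 ratios of 1.01 in Sc and -1.04 in St, and of 1.01 and -1.10. The nearest clones left out were at 0.999 and -2.25, where the first value fell just short of the threshold, and at 0.99 and -1.41. In the second direction the nearest clones inside were at -1.46 and 1.001, and at -1.20 and 1.02. The nearest outside were at -0.96 and 1.17, and at -0.96 and 1.46. At 1.5-fold the order of the directions turned, with 63 clones in the first and 92 in the second, whereas at 3-fold there were 9 and 3. The first direction was thus the larger one at 2-fold and above, and the smaller one at 1.5-fold.

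By the weaker of their 2 ratios, the most strongly opposite clones were all of the first direction. By the species gap the directions overlapped, with -4.60 for STMIY25 of the second direction and 4.21 for STMID86 of the first. In the ranking by the weaker ratio, STMGB34 and STMHO80 came first. STMGB34 had a log2 ratio of 2.44 in Sc 35S::AtCBF3 plants (5.43-fold higher) and of -2.34 in St (5.05-fold lower). In the cold its Sc ratios were 0.21 at 2 h, -0.05 at 24 h and 0.52 at 7 d, and its St ratios were -0.23, 0.64 and 0.01. It thus stayed under 2-fold in every cold column. STMHO80 was at 2.56 with 35S::AtCBF3 in Sc (5.90-fold higher) and at -2.28 in St (4.84-fold lower). Its cold ratios were -0.02, -0.03 and 0.41 in Sc and -0.12, 0.53 and -0.09 in St, in the order 2 h, 24 h and 7 d. Neither clone had a cold ratio of the size of its transgenic ratios in either species.

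A limit of 4-fold in both species, chosen after the values had been seen, was met by 5 clones of the first direction and by none of the second. Besides STMGB34 and STMHO80 they were STMID83, STMHK44 and STMID86. With 35S::AtCBF3, STMID83 was at 2.22 in Sc and -2.53 in St. STMHK44 was at 2.13 and -3.34, or 10.1-fold lower in St. STMID86 was at 2.05 and -2.16. The cold columns did not choose these 5 clones. In Sc their log2 ratios lay between -0.03 and 0.21 at 2 h, between -0.12 and 0.07 at 24 h, and between 0.21 and 0.53 at 7 d. In St they lay between -0.23 and 0.23 at 2 h, between 0.53 and 1.35 at 24 h, and between -0.09 and 0.59 at 7 d. All 5 were thus flat at 2 h in both species, above 0 at 24 h in St and near 0 at 24 h in Sc. At 7 d all 5 were above 0 in Sc, and 4 of them in St. Their range in St, highest minus lowest, was 0.82 at 24 h and 0.68 at 7 d. The central spread of all clones there (SD from the median absolute deviation) was 0.37 and 0.43. A range and an SD are different measures, so these values do not tell if the 5 clones varied more than others. STMHK25, with 1.95 and -2.58 in the 35S::AtCBF3 columns, fell just short of the limit, and was at 0.03, 0.00 and 0.45 in Sc and -0.02, 1.01 and 0.48 in St in the cold. Whether these clones carry the same transcript was not tested, as they have no gene names or sequences here. The first 5 characters of the name, STMHK and STMID, were shared by 2 clones each, and the 21 clones came from 19 such name blocks in all. The 15 clones of the second direction came from 15 blocks.

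**Figure D2:**
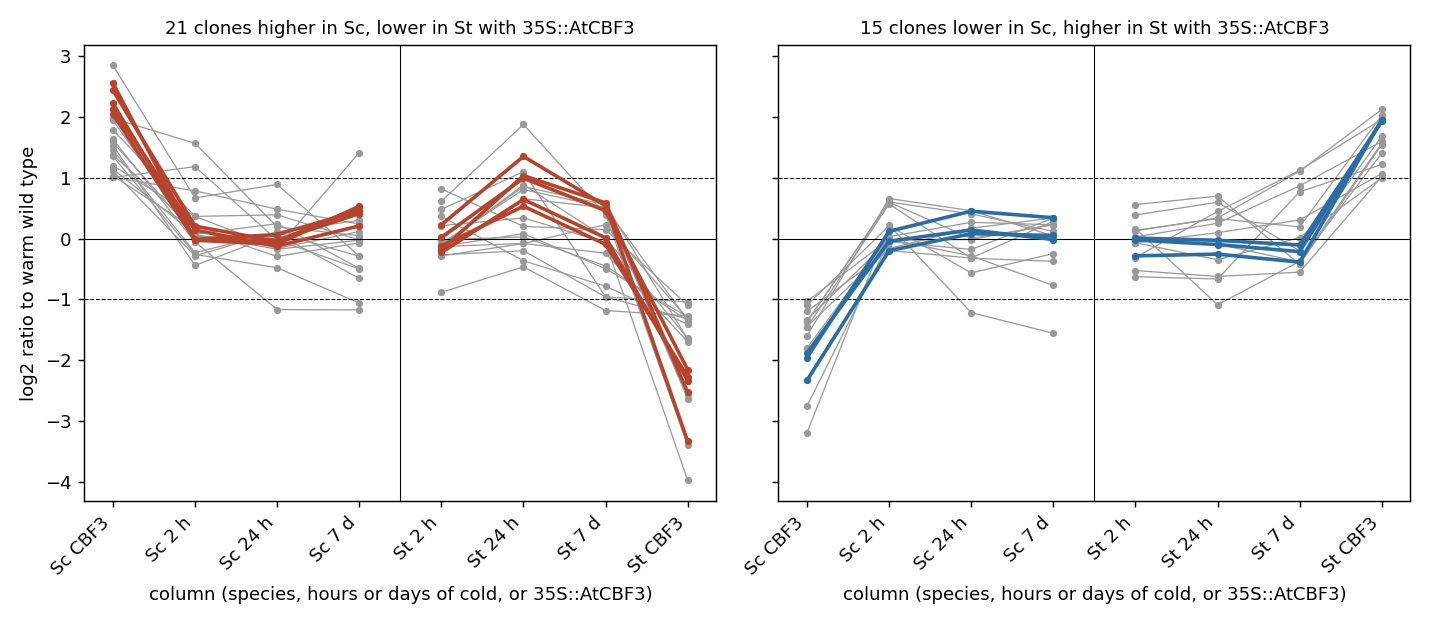
Each line is 1 clone, with its log2 ratio to warm wild type on the y axis in the 35S::AtCBF3 column and the 2 h, 24 h and 7 d cold columns of Sc (left of the vertical line) and St (right of it), and dashed lines at 2-fold. The left panel holds the 21 clones higher in Sc and lower in St, with the 5 clones past 4-fold in colour. The right panel holds the 15 reverse clones, with the 3 clones past 3-fold in colour, whose cold ratios lie between -0.39 and 0.45.

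The remaining clones of the first direction were less uniform. STMGD72 had the widest gap of the 36 clones, a difference of 5.56 on the log2 scale between the species. It was at 1.58 in Sc (3.00-fold higher) and at -3.98 in St (15.8-fold lower), which made it number 22 from the bottom of that column. Its cold ratios all lay between -0.18 and 0.34. STMGQ82 was at 1.98 and -3.40 with 35S::AtCBF3. Unlike the clones above it was 2-fold higher early in the cold in Sc, with 1.57 at 2 h, then 0.19 at 24 h and 0.05 after 7 d. In St it was at 0.61, 1.88 and 0.40 at these times, so that its highest cold ratio came at 24 h there. STMGH26, the clone nearest to the threshold, was likewise past 2-fold at 2 h in Sc and at 24 h in St but below 0 at 7 d, with 1.18, -0.02 and -0.50 in Sc and 0.48, 1.10 and -0.96 in St. The 8 clones of this direction not named here had log2 ratios from 1.01 to 2.85 in Sc and from -1.70 to -1.10 in St with 35S::AtCBF3, and from -0.50 to 0.89 in the cold.

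Other clones of the first direction were past 2-fold in the cold at 7 d or in Sc. STMEI68, at 1.20 and -2.63 with 35S::AtCBF3, was at 1.42 after 7 d in Sc and at 0.51 in St. STMCZ51, at 1.63 and -1.41, was 2-fold lower in the cold in Sc, with -1.17 at 24 h and -1.17 at 7 d, while St was at -0.37 and -0.78. STMGR52, at 1.35 and -1.32, was at -1.06 after 7 d in Sc and at -0.96 in St. STMGU77, at 1.53 and -1.27, was at -0.65 and -1.18 in the 7 d columns. For the last 3 clones the sign at 7 d was the same in both species, although their signs with 35S::AtCBF3 were opposite.

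In the second direction the strongest clones were STMIR25 and STMEP76. STMIR25 was at -2.33 in Sc 35S::AtCBF3 plants (5.04-fold lower) and at 1.95 in St (3.87-fold higher). Its cold ratios were -0.20, 0.08 and 0.05 in Sc and -0.28, -0.26 and -0.39 in St. STMEP76 was at -1.96 (3.88-fold lower) and 1.95 (3.86-fold higher), with cold ratios of 0.12, 0.45 and 0.34 in Sc and -0.02, -0.10 and -0.21 in St. The third clone past 3-fold in both species, STMJF02, was at -1.88 and 1.93. Its cold ratios stayed between -0.11 and 0.14. These 3 clones were past 3-fold with the transgene and showed no 2-fold ratio at any time in the cold.

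STMIY25 had the lowest ratio of all 11366 clones in Sc 35S::AtCBF3 plants, -3.19 or 9.15-fold lower, and was 2.65-fold higher in St 35S::AtCBF3 plants (1.41). It was the clone of the second direction with the widest gap, -4.60 on the log2 scale. In Sc it was also lower in the cold, at -1.22 after 24 h and -1.56 after 7 d, from 0.22 at 2 h. In St it was at 0.16, -1.09 and -0.38. It was past 2-fold in 3 cold columns, more than any other of the 36 clones, and its St ratio was lower at 24 h of cold but higher with the transgene. STMDO51 and STMEY55 were the clones of this direction that were 2-fold higher at 7 d in St. STMDO51, at -1.45 and 2.13 with 35S::AtCBF3, was at 1.11 after 7 d in St and at 0.34 in Sc. STMEY55, at -1.09 and 1.96, was at 1.12 and -0.25. The 9 clones of this direction not named here had log2 ratios from -2.75 to -1.03 in Sc and from 1.001 to 2.03 in St with 35S::AtCBF3, and from -0.77 to 0.87 in the cold.

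The cold columns were not used to choose the clones, and describe them under a separate treatment. The labels do not state if the transgenic plants and the cold plants had the same wild-type controls, so noise common to these columns within a species cannot be set apart. Of the 36 clones, 24 were under 2-fold in all 6 cold columns and 12 were past it in at least 1, against 25.8% of all clones. The 12 clones were 9 of the 21 in the first direction (42.9%) and 3 of the 15 in the second (20.0%). None of the 36 was 2-fold higher in one species and 2-fold lower in the other at the same time in the cold. That pattern was found in 0.0352% of all clones, so its absence from 36 clones says little about them. Clones that moved the same way in both species with 35S::AtCBF3 were more often past 2-fold in the cold, with 182 of the 296 clones higher in both (61.5%) and 152 of the 182 lower in both (83.5%). These shares describe clones and were not tested.

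Among the cold columns the first direction had its highest median at 24 h in St. There the median log2 ratio was 0.64 (1.56-fold higher), against 0.01 for all clones. Above 0 were 16 of the 21 clones, against 5764 of all 11366. At least 2-fold higher were 5 clones (23.8%), against 11.9% of all clones. The 5 clones were STMGQ82, STMHK44, STMGH26, STMID83 and STMHK25, and none of the 21 was 2-fold lower (1.43% of all clones). STMID83 at 1.04 and STMHK25 at 1.01 lay just past the threshold. Whether some of the 5 carry the same transcript was not tested. The median at 24 h in St was 0.99 for the clones past 4-fold in both species with the transgene. For the other 16 it was 0.27, and 3 of these 16 were 2-fold higher. The height of the median thus rested in part on the clones past 4-fold. In Sc at 24 h the median was -0.02, no clone was 2-fold higher (2.65% of all clones) and 1 was 2-fold lower (1.24%). At 2 h the medians were 0.07 in Sc, with 2 clones higher (10.9% of all clones) and none lower (0.150%), and -0.11 in St, with none higher (7.87%) and none lower (0.334%). At 7 d the medians were 0.05 and 0.01. In Sc 1 clone was higher (3.10% of all clones) and 2 were lower (5.42%) at that time, and in St none was higher (4.04%) and 1 was lower (6.42%). At 2 h and 7 d the medians of the first direction thus lay close to those of all clones, although the 9 clones past 3-fold had 7 d medians of 0.41 in Sc and 0.40 in St. The counts of 0 to 2 clones are too small to be set against the background shares.

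The second direction lay close to 0 in the cold. Its medians lay between -0.11 and 0.12 in the 6 cold columns, where those of all clones lay between -0.0075 and 0.011. No clone was 2-fold higher or lower at 2 h in either species. Of all clones 10.9% were higher and 0.150% lower at 2 h in Sc, and 7.87% and 0.334% in St. At 24 h STMIY25 was the sole clone past 2-fold, lower in Sc (1.24% of all clones) and in St (1.43%). None was higher at 24 h (2.65% of all clones in Sc and 11.9% in St). At 7 d in Sc STMIY25 was again the sole clone 2-fold lower (5.42%), and none was higher (3.10%). At 7 d in St 2 of the 15 clones were 2-fold higher (4.04% of all clones) and none was lower (6.42%). With all columns scaled to one spread none was 2-fold higher there. These counts are too small to be set against the shares of all clones. For contrast, the 182 clones lower in both species with 35S::AtCBF3 had medians of -1.39 in Sc and -1.38 in St at 7 d, where the clones lower in Sc alone and higher in St were at 0.12 and -0.11. The 296 clones higher in both species had medians of 0.42 in Sc and 0.31 in St at 24 h and of 0.36 and 0.38 at 7 d.

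**Figure D3:**
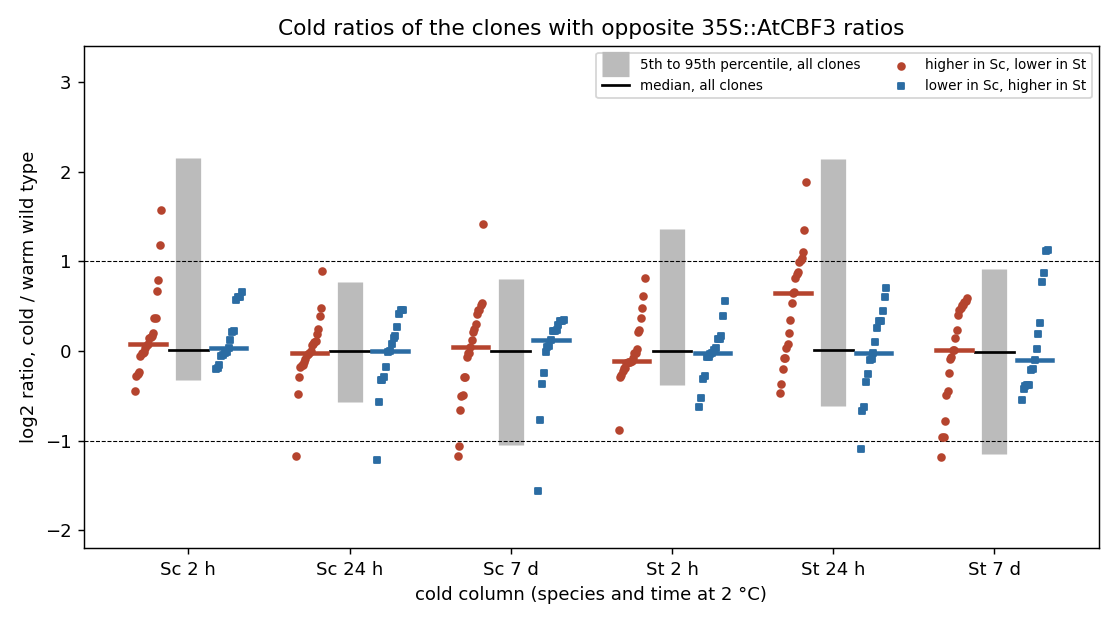
Points are clones, with their log2 ratio of cold to warm wild type on the y axis in the 6 cold columns; coloured bars are the medians of the 21 clones higher in Sc and lower in St (circles) and of the 15 reverse clones (squares), black bars are the median of all 11366 clones and grey boxes their 5th to 95th percentile. The circles are shifted upward at 24 h in St, with a median of 0.64. Without the clones past 4-fold in both species with the transgene, that median is 0.27. In the other columns the circles lie around 0 like the squares.

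The cold responses of the species were also set against each other clone by clone. At 24 h the first direction was higher in St than in Sc, with a median difference of -0.69 on the log2 scale (Sc minus St, range -1.69 to 0.54). A difference of at least 2-fold in that sense was found for 6 of its 21 clones (28.6%), against 9.14% of all clones, and none differed in the other sense (0.563%). The sign of this gap was opposite to that with 35S::AtCBF3, where all 21 were higher in Sc, with a median difference of 3.49. The selection fixed the sign with 35S::AtCBF3 for all 21, so only the cold side was free to vary. The second direction had a median difference of -0.13 at 24 h, with 1 of its 15 clones 2-fold higher in St. At 2 h no clone of either direction differed by 2-fold between the species, where 3.82% of all clones were higher in Sc and 0.202% in St. At 7 d none of the 36 clones was 2-fold higher in Sc (1.13% of all clones), and 3 of the 15 clones of the second direction were 2-fold higher in St (20.0%, against 1.28%). A count of 3 clones is too small to be set against that share. The median difference of the 15 clones at 7 d was 0.03. The widest gap of the 3 clones was that of STMEY55, -1.37, followed by STMIY25 at -1.18. In these 3 clones the species gap at 7 d had the same sign as with 35S::AtCBF3, but they were singled out for that side. At 2 h the gap had the other sign in all 3, with 0.52 for STMEY55 and 0.05 for STMIY25.

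**Figure D4:**
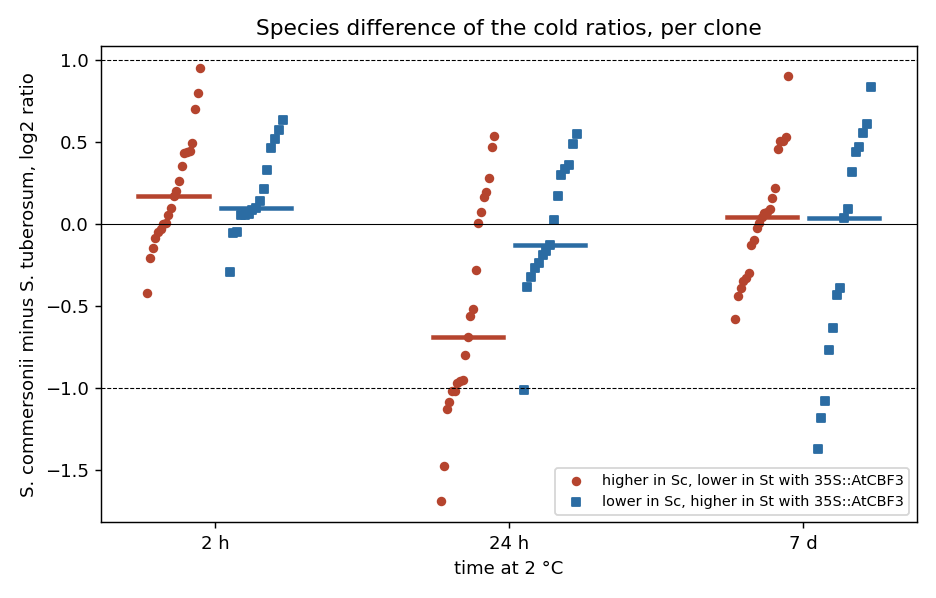
Points are clones, with the Sc log2 ratio minus the St log2 ratio on the y axis at 2 h, 24 h and 7 d of cold, bars are medians and dashed lines mark a 2-fold difference. At 24 h the clones higher in Sc with 35S::AtCBF3 (circles) have a median of -0.69, on the St side, while at 2 h and 7 d both sets centre near 0.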

How the data were processed

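Leaf RNA was compared on 2-colour slides; dyes (Cy3 and Cy5) were coupled indirectly through aminoallyl groups, per the labels' protocols. The authors deposited a table of 11366 clones by 8 columns, without missing values, whose entries were read as log2 ratios of transgenic or cold over warm wild type. Per the labels' descriptions a column joins 3 slides, and 2 for the St transgenic plants. Every channel lists both dyes, and 3 slides cannot balance them. The submitters' processing notes name limma. Background correction, normalization, filters, log base, ratio direction and centring: not given in the sources used here. Column medians lay between -0.0075 and 0.011. Slide values and intensities were not analysed here, so depth is unknown and precision is limited by how few slides there were.

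Clones were selected and counted at fixed folds with pandas 2.3.3 in Python 3.11.15. The counting was tested on simulated data with planted 3-fold clones and far less spread than the real columns. That checked the code only, and not how many clones noise could place in either direction. No statistical test was run, since each group had 1 value per clone. The clones, the comparisons and the lists of named clones were chosen with earlier results of these data known. Named by rule were the 2 clones of each direction with the highest weaker ratio; the others (19 named in all) were chosen after their values were seen, for a ratio past 3-fold or 4-fold in both transgenic columns, a 2-fold ratio in the cold or the widest gap. Alternatives were thresholds of 1.5-fold, 3-fold and 4-fold, centring of each column, and scaling of all columns to one spread. The gene lists and marker checks, and the averaging of clones of 1 gene, were not run because no gene names were matched.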

Additional observations from a re-analysis of the deposited data

Results flagged for a closer look

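The ratios of transgenic plants to wild type were opposite in the 2 species for 21 clones in the first direction and 15 in the second; with 1 value per species this difference was not tested. The named clones had the following differences, Sc minus St on the log2 scale. Among those past 4-fold in both species the difference was 4.78 for STMGB34, 4.84 for STMHO80, 4.76 for STMID83, 5.47 for STMHK44 and 4.21 for STMID86. It was 5.56 for STMGD72, 5.38 for STMGQ82, 4.53 for STMHK25 and 3.84 for STMEI68. Smaller gaps were those of STMCZ51 at 3.04, STMGU77 at 2.80, STMGR52 at 2.68 and STMGH26 at 2.05. In the reverse direction the difference was -4.60 for STMIY25, -4.28 for STMIR25, -3.91 for STMEP76, -3.81 for STMJF02, -3.57 for STMDO51 and -3.06 for STMEY55.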

How the results depend on the processing

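No paired analysis was possible because each group has 1 value per clone, and no slide could be left out. Centring the columns on their medians left 19 and 14 clones in the first and second direction, and scaling them to one spread 17 and 11. The thresholds moved these numbers most: 63 and 92 clones at 1.5-fold, 9 and 3 at 3-fold, and 5 and 0 at 4-fold, a limit added after the data were seen. All 48 medians in the cold under the alternatives lay within 1 central spread (of all clones in that column) of the value reported. That spread is one of single clones and a wide limit for a median, so it does not show that the medians were stable. The median of the first direction at 24 h in St was 0.34 at 1.5-fold and 0.99 at 3-fold. Its 7 d medians at 3-fold were 0.41 in Sc and 0.40 in St, from 0.05 and 0.01. Of the counts of clones past the threshold in single cold columns, most are too small to be stable. At 1.5-fold, for clones and cold ratios alike, the first direction had 13 clones higher and 2 lower at 2 h, 10 and 2 at 24 h, and 5 and 11 at 7 d in Sc, and 9 and 2, 27 and 1, and 6 and 15 in St. The second direction had 10 higher at 2 h, 4 higher and 9 lower at 24 h, and 14 and 16 at 7 d in Sc, and 4 and 3, 15 and 15, and 22 and 14 in St. Of all clones, in the same order of higher and lower at 2 h, 24 h and 7 d, 14.2% and 0.783%, 9.06% and 4.72%, and 9.44% and 11.9% were past 1.5-fold in Sc, and 11.9% and 1.62%, 17.1% and 5.81%, and 11.6% and 13.8% in St. At 3-fold 1 clone of the first direction was higher at 24 h in St (7.94% of all clones). In each of the other cold columns that held any at 2-fold, 0 clones of either direction were past the threshold. Of all clones, from 0.238% (lower at 24 h in St) to 7.94% (higher at 2 h in Sc) were past 3-fold there. With scaled columns the first direction had 1 clone higher at 24 h in Sc and 1 at 2 h in St and 0 lower at 7 d in St, and the second had 1 higher at 2 h in Sc and 0 higher at 7 d in St. With centred columns the first direction had 1 clone higher at 2 h in Sc. The shares of all clones were not computed for scaled or centred columns, so these counts have no background beside them. The cause of these shifts was not tested beyond the change in the number of clones that each threshold admits.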
